A study of Mus musculus with 36 samples.

Results

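The 11076 CTCF sites described here were found in mouse embryonic stem (ES) cells on day 0 and on none of days 2, 4 and 6. They were selected by presence alone, from 4 lists of CTCF peaks merged wherever intervals overlapped by 1 bp or more, and they are 20.6% of the 53682 merged sites. Each was also 1 peak of the day 0 list, so they made up 23.4% (95% exact interval 23.0 to 23.7) of its 47414 peaks, and the 36338 other day 0 peaks were found again on at least 1 later day. The study profiled CTCF, MBD3 and input chromatin by chromatin immunoprecipitation and sequencing (ChIP-seq) on days 0, 2, 4 and 6, with 3 replicates in each of 12 groups. All groups were cells labelled mESC, marked WT in the names of the peak lists, grown with leukaemia inhibitory factor on gelatin and irradiated mouse embryonic fibroblast feeders, which also contribute chromatin to such a culture. The day, and the antibody, are what separates the groups, and no label states how the cells were handled over these days. For each antibody and day, peaks had been called on 3 pooled replicates, so no spread between replicates can be given and no difference between days was tested. RNA was not measured, so the labelled cell type could not be checked against its marker genes. A missing peak on a later day means only that none passed the caller's threshold there: fewer cells with the protein at a site, less protein per site and fewer fragments sequenced cannot be told apart.

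CTCF is a zinc finger protein that binds a long, well defined DNA motif, where it blocks the loop extrusion of cohesin and so sets the borders of chromatin domains and insulates genes from one another. Most strong CTCF sites are shared by nearly all cell types, while weaker sites vary, some with DNA methylation of CpG dinucleotides in the motif. CpG islands, the stretches rich in unmethylated CpG at many gene starts, are open chromatin in which CTCF signal is also often recorded. MBD3 belongs to NuRD, a nucleosome remodelling and histone deacetylase complex that removes acetyl groups from histones, moves nucleosomes and restrains gene expression as ES cells leave pluripotency.

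The promoter sequences of 4 genes with a day 0 only site are rich in CpG beside all coding promoter windows, whose median was 13 CpG. Each runs from 250 bases before to 50 bases after the annotated transcription start, is taken from RefSeq on GRCm38.p6 (the assembly of mm10), and reads 5′ to 3′ on the gene's strand, with every CpG in capitals. Zfp28 and Zfp335 encode zinc finger proteins, as does Zfp740, and Gatad2a encodes a NuRD subunit.
Zfp28: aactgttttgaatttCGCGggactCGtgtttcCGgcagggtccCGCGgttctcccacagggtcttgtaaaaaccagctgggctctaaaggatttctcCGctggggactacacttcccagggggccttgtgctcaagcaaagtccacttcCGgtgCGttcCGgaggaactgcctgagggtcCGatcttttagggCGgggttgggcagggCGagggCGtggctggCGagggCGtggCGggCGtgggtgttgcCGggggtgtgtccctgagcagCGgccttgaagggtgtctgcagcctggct
Zfp335: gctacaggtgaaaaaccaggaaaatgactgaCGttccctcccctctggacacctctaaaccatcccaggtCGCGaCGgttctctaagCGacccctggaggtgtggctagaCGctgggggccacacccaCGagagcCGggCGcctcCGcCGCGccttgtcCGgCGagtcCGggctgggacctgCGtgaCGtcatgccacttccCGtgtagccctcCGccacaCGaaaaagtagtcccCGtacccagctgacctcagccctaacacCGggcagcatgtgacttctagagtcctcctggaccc
Zfp740: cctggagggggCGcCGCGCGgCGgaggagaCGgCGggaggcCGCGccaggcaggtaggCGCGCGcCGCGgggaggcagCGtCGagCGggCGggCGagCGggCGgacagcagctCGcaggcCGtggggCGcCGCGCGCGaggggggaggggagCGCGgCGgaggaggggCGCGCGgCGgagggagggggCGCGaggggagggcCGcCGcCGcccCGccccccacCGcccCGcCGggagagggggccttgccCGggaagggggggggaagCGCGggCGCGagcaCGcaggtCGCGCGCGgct
Gatad2a: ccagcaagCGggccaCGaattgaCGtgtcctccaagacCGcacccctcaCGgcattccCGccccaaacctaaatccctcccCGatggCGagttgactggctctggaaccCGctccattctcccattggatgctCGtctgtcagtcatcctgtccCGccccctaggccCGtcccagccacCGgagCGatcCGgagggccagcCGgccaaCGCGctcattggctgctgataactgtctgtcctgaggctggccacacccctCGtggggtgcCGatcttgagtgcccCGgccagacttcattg
The Zfp28 window (chr7:6383068-6383367, plus strand) holds 20 CpG and the day 0 peak there had 112 fragments at its summit against 18.3 expected, and lies within 1 kb of the end of the neighbouring Zfp78 as well. The Zfp335 window (chr2:164911701-164912000, minus strand) holds 22 CpG, with 93 fragments against 17.3 at a summit 452 bp downstream of the start. The Zfp740 window (chr15:102203750-102204049, plus strand) holds 54 CpG in a sequence that is 85.3% G and C, with 66 fragments against 12.8 at a summit 300 bp upstream of the start. The Zfp335 and Zfp740 summits thus lie outside the printed windows, which their peaks overlap. The Gatad2a window (chr8:69996335-69996634, minus strand) holds 21 CpG, with 136 fragments against 47.5 at a summit 25 bp downstream of the start. The other 2 promoters, picked for contrast after their values were seen, carried a CTCF peak on all 4 days, and their capitals mark the match to a loose form of the CTCF core motif, CCNNNAGNNGGC, searched on both strands (GCCNNCTNNNGG on the reverse).
Nipsnap2: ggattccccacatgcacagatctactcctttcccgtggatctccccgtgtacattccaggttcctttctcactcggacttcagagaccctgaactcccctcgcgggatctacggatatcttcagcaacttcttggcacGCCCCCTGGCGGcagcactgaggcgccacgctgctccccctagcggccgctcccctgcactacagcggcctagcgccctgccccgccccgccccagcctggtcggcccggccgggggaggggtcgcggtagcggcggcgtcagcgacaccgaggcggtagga
Vps36: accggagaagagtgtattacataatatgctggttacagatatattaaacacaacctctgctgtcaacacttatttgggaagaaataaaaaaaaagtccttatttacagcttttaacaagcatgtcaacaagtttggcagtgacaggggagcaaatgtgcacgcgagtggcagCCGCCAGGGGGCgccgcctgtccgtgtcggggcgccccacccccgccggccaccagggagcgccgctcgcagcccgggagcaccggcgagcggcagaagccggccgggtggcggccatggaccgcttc
At Nipsnap2 (chr5:129724825-129725124, plus strand) the day 0 CTCF peak had 1439 fragments against 32.9 expected, a fold enrichment of 42.5, and at Vps36 (chr8:22192583-22192882, plus strand) it had 1136 against 23.7, a fold of 46.0. Among the 4 day 0 only promoters shown, Zfp740 holds 1 match to this motif, and the letters are not in the windows of Zfp28, Zfp335 and Gatad2a. The Nipsnap2 and Vps36 windows hold 27 and 22 CpG, which are not in capitals. With 20 to 22 CpG, the Zfp28, Zfp335 and Gatad2a windows do not exceed these. They lie below the median of 27 of windows with a day 0 only peak.

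Promoters with a day 0 only peak were richer in CpG, and held the CTCF motif less often, than promoters with a day 0 peak that was found again. RefSeq windows were available for 17492 of 21887 protein-coding genes. Of the 21263 coding windows, 9.12% were overlapped by a day 0 only peak, among them 1936 with no other day 0 peak and 4 with both kinds. The 1936 windows had a median of 27 CpG (quartiles 19 and 35) and a median G and C content of 66.8%. The 2144 windows with a peak found later had a median of 23 CpG (15 and 30) and 63.0% G and C, and the 17179 windows with no day 0 CTCF peak had 9 (3 and 21) and 54.3%. The share of windows with a day 0 only peak rose with each step in CpG number, from 0.348% (0.216 to 0.531) at 0 to 4 CpG through 10.9% (9.68 to 12.3) at 15 to 19 to 26.4% (23.8 to 29.1) at 40 to 67. The share with a peak of all 4 days went from 0.646% to 9.80% (8.62 to 11.1) and 14.1% (12.0 to 16.3) over the same steps. The day 0 only share was the lower of the pair up to 14 CpG and the higher from 15 CpG up, and the intervals did not overlap from 25 CpG up (16.9%, 15.3 to 18.6, against 13.6%, 12.2 to 15.2, at 25 to 29). Against the share with any day 0 peak found later, it was the lower up to 29 CpG (16.9% against 18.4%, 16.7 to 20.2, at 25 to 29). From 30 CpG up it was the higher, with 22.7% (20.9 to 24.5) against 16.2% (14.7 to 17.8) at 30 to 39. The motif was in 15.3% (13.8 to 17.0) of the 1936 windows, in 30.0% (28.1 to 32.0) of those with a peak found later, in 6.75% (6.38 to 7.14) of those without a peak and in 9.88% of all coding windows. The difference between the first pair was −14.6 percentage points (Newcombe interval −17.2 to −12.1). In all 8 steps of CpG number the day 0 only windows held the motif less often than the windows with a peak found later and more often than those without one, though the lowest step has 21 day 0 only windows.

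**Figure D1:**
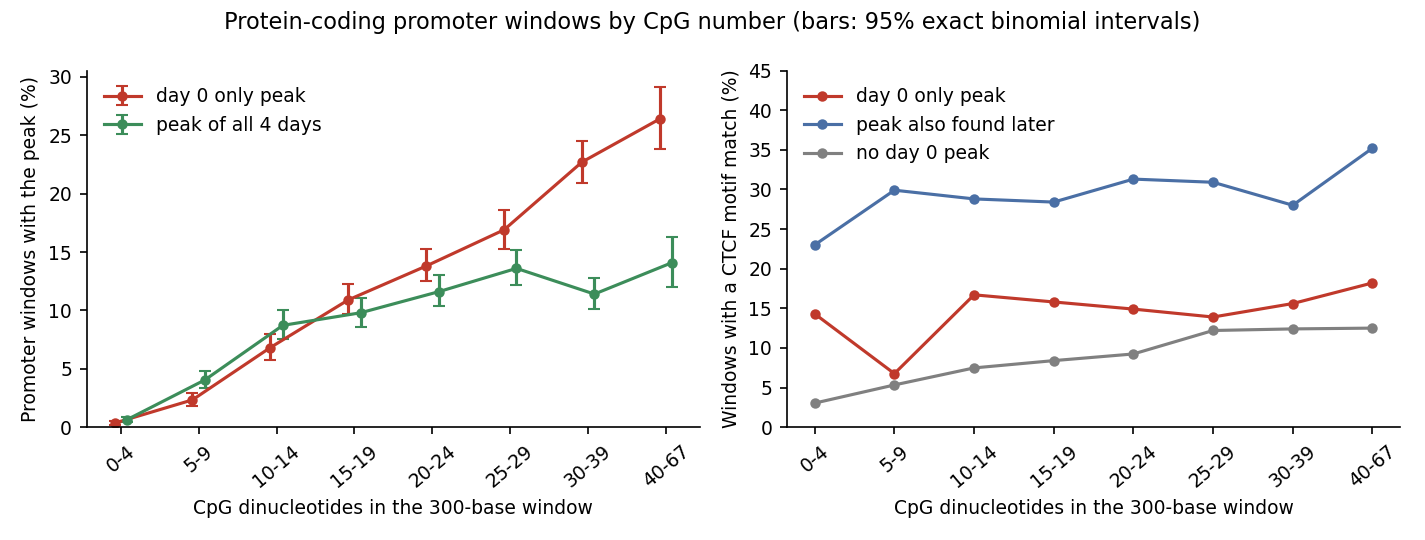
Left, percent of protein-coding promoter windows with a day 0 only CTCF peak (red) or a CTCF peak of all 4 days (green), by the number of CpG in the 300-base window, with 95% exact binomial intervals. Right, percent of windows with a match to the loose CTCF motif, for windows with a day 0 only peak, a day 0 peak also found later, or none; the red share climbs to 26.4% at 40 to 67 CpG while its motif share stays under the blue one in every step.

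The gap in motif share was smaller among windows whose peaks had a like fold, from 2 to 6. Among windows whose peak had a fold of 2 to 3, the motif was in 15.3% (13.3 to 17.5) of 1165 with a day 0 only peak and in 16.9% (10.8 to 24.7) of 124 with a peak found later. At a fold of 3 to 4 the shares were 16.1% and 21.1% (15.2 to 27.9), and at 4 to 6 they were 19.8% (13.1 to 28.1) and 21.7%, with intervals that overlap each time. Below a fold of 2 the motif was in 11.7% (8.23 to 15.9) of 291 day 0 only windows and in 3 of 9 with a peak found later. The day 0 only share was thus the lower in every range below 6. Above a fold of 6 the motif was in 34.2% (31.8 to 36.7) of 1466 windows with a peak found later, and in 5 of the 12 with a day 0 only peak. CpG number did not follow this pattern, with a median of 27 against 23 at a fold of 2 to 3 and of 26 against 23 at 3 to 4. Above 6 the order was the other way, with 20.5 in the 12 day 0 only windows against 23.

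The values of the day 0 peaks themselves come from a list that chose the members, so they are given as a description. The fold enrichment as deposited, which is the ratio of fragments at the summit to the expected background with 1 added to each, had a median of 3.11 (quartiles 2.49 and 4.02, range 1.30 to 17.0). It was 4.66 in the 3945 peaks found on 1 later day, 5.73 in the 6964 found on 2, and 9.87 in the 25429 found on all 4 days. Whole fragment numbers recovered from the fold and the −log10 p gave the day 0 only peaks a median of 32 fragments at the summit, against 35, 43 and 101 in the other classes. Their expected background, with a median of 9.13 fragments, was above the 6.39 and 6.44 of the peaks found on 1 and 2 later days and close to the 9.74 of the peaks of all 4 days. Day 0 only peaks thus had about as many fragments as those found on 1 later day, over a higher background. Their median width was 237 bp, against 362 bp for the peaks of all 4 days.

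**Figure D2:**
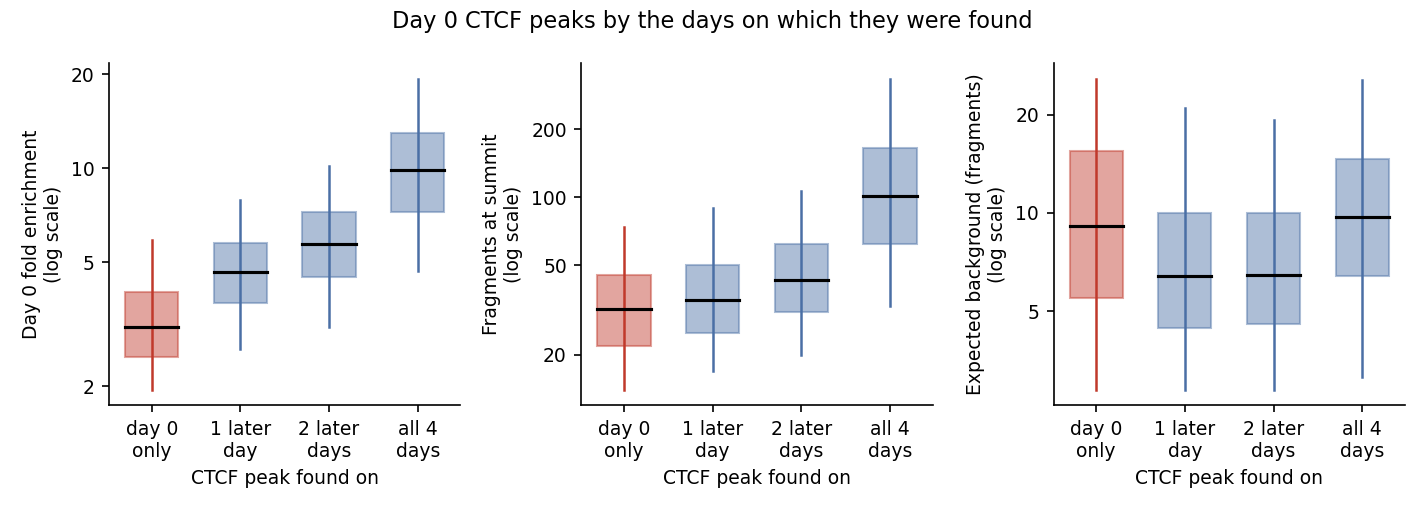
Day 0 fold enrichment, fragments at the summit and expected background (log axes) of day 0 CTCF peaks by the later days on which they were found; lines are medians, boxes quartiles and whiskers the 5th to 95th percentiles. Median fold steps up from 3.11 in day 0 only peaks to 9.87 in peaks of all 4 days, while the expected background of the day 0 only peaks, 9.13 fragments, lies above that of the peaks found on 1 or 2 later days.

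The later lists were shorter and had other limits of detection. They held 28137, 36787 and 38109 CTCF peaks on days 2, 4 and 6, against 47414 on day 0. The genome-wide background level, which follows the number and length of fragments sequenced, was 2.87 fragments on day 0 and 1.83 to 2.67 later, and the 10th percentile of fold was 2.80 on day 0 and 3.39, 4.22 and 4.22 on days 2, 4 and 6. Of the day 0 only sites, 2364 (21.3%, 20.6 to 22.1) had a day 0 fold above that percentile in all 3 later lists, and the remaining sites had a day 0 fold within the range of the lowest 10% of peaks, or below it, in at least 1 later list. The part of depth in their absence from later lists was not tested beyond that count. Sharing by 1 bp left few near misses, since 6 sites had a later CTCF peak within 100 bp and 1038 (9.37%) had one within 1 kb. Just inside the rule, a chromosome 14 site (31324451 to 31324741, fold 1.93) lay 26 bp from a day 4 peak of fold 13.7, and a chromosome 17 site (35542846 to 35543217, fold 4.26) lay 40 bp from a day 6 peak of fold 4.32. Just outside it, a chromosome 14 peak (23169518 to 23169693, fold 3.26) shared 14 bp with a day 4 peak of fold 2.33, and a chromosome X peak (169969469 to 169969640, fold 2.82) shared 41 bp with a day 6 peak of fold 2.1. Peaks found on only 1 later day were found on day 6 in 55.1% of cases, on day 4 in 37.8% and on day 2 in 7.10%. The lengths of the later lists have the same order, and the part of list length in these shares was not tested.

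Of the 12 day 0 only sites of highest fold, 2 (near Tbca and Gm30599) lay within 1 kb of a protein-coding gene end, where 28.4% of all day 0 only sites and 11.5% of other day 0 peaks lay. The site of highest fold, 310 bp from an end of the tubulin cofactor gene Tbca, had 171 fragments against 9.13 expected, and the site inside Cracdl had 114 against 7.30. A site on chromosome 2 at 164520734 to 164521237, 12705 bp from Pigt, which encodes a subunit of the enzyme that attaches GPI anchors to proteins, had 103 fragments against 7.30 (fold 12.5). A site inside Cdh1, the gene of the adhesion protein E-cadherin, on chromosome 8 at 106631910 to 106632254, had 134 against 11.8 (fold 10.6). Sites of fold 10.5 and 10.4 lay inside Arid1b, a subunit gene of the BAF chromatin remodelling complex, on chromosome 17 at 5316445 to 5316724, and inside Larp1, which encodes an RNA-binding protein, on chromosome 11 at 58018400 to 58019021. Sites outside coding genes with folds of 10.9 to 12.4 had their nearest coding gene end at Cux1 (1403 bp away), Klhdc8a (10187 bp), Arhgap42 (133709 bp) and Cnbd1 (148021 bp). The largest −log10 q among all day 0 only sites, 191.9, belonged to a site 443 bp from an end of Gm30599 on chromosome 12, with 280 fragments against 22.8 expected. Of the 12 highest by fold, 6 overlapped an MBD3 peak on day 0 and none did on a later day. Among other day 0 peaks of a like fold, 28.9% (fold 9.46 to 11.4) and 47.7% (11.4 to 14.2) overlapped one on day 0, and 37.7% and 49.5% did on day 6.

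Among sites within 1 kb of a protein-coding gene end, the next by −log10 q were at Gm2974, Gm3411 and Gm3383 on chromosome 14. These belong to a family of near-identical genes, so fragments may be shared between copies and the sites are uncertain. Their expected backgrounds of 52.9, 86.7 and 38.8 fragments were far above the median of 9.13. They were followed by sites at Ncs1, which encodes a neuronal calcium sensor (165 fragments against 28.3), at Dlgap4, which encodes a postsynaptic scaffold protein (120 against 14.6), and at Abcg1, which encodes a cholesterol exporter (123 against 19.2).

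Day 0 only sites lay close to transcription starts far more often than other day 0 peaks did. Starts came from the RefSeq promoter table, which was used for all chromosomes but 18, and leave 10743 of the sites. A summit lay within 1 kb of a start in 2896 of them (27.0%, 26.1 to 27.8) and in 3369 of 35299 other day 0 peaks (9.54%, 9.24 to 9.86), a difference of 17.4 percentage points (Newcombe interval 16.5 to 18.3). Nearly all of the excess was at coding genes, with 24.8% of sites within 1 kb of a coding start against 7.61%, while starts of other genes had 2.12% against 1.93% (difference 0.190, −0.106 to 0.512). Sites inside a coding gene away from its ends made up 34.6% against 41.1%, and sites outside coding genes 30.8% against 44.3%. Sites found on a single later day did not show this position: 15 of 831 (1.81%) found on day 2 only, 51 of 1494 (3.41%) on day 4 only and 76 of 2008 (3.78%) on day 6 only lay within 1 kb of a start. Their median folds were 3.38, 4.24 and 4.56, against 3.11 at day 0 only sites, and they were not compared at equal fold. All intervals in this account cover counting error only, since sites of a list are not replicates of a day.

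When day 0 peaks were split by fold alone, the excess at starts was found among those of low fold. With day 0 peaks split into 10 equal groups by fold, 44.6% of day 0 only sites and 26.8% of other peaks in the lowest group (fold 1.16 to 2.80) were within 1 kb of a start, a difference of 17.9 points (13.5 to 21.9). In the second group (2.80 to 3.65) the shares were 22.2% and 16.0%, a difference of 6.23 points (3.84 to 8.55). From the third to the seventh group the difference was between −0.391 and 1.62 points, with intervals that included 0 each time. Averaged within these 7 groups, the difference was 9.01 points (7.20 to 10.8). Limits on −log10 q, in contrast, kept an excess at protein-coding gene ends in sites of higher fold. With a −log10 q of 10 or more on day 0, the shares were 24.9% and 11.9%, at a median day 0 only fold of 4.54. With equal numbers of CTCF peaks per day they were 25.6% and 12.3%, at a median of 5.93. Those sites were not split by fold. Expected background moved with position as well. The 2896 sites near a start had a median background of 15.7 fragments, 42 fragments at the summit and a fold of 2.52, against 7.30, 28 and 3.37 in the sites away from starts. The share near a start rose with background in both classes, from 1.2% and 1.3% at under 3 fragments to 50.9% of day 0 only sites and 19.2% of other peaks at 12 to 24, and 60.1% and 38.4% above 24. From 3 fragments up the day 0 only share was the higher of the pair in every range, and in those ranges the median fold of the day 0 only sites was lower (2.12 to 3.86, against 7.74 to 9.44), so fold and background were not held level together.

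**Figure D3:**
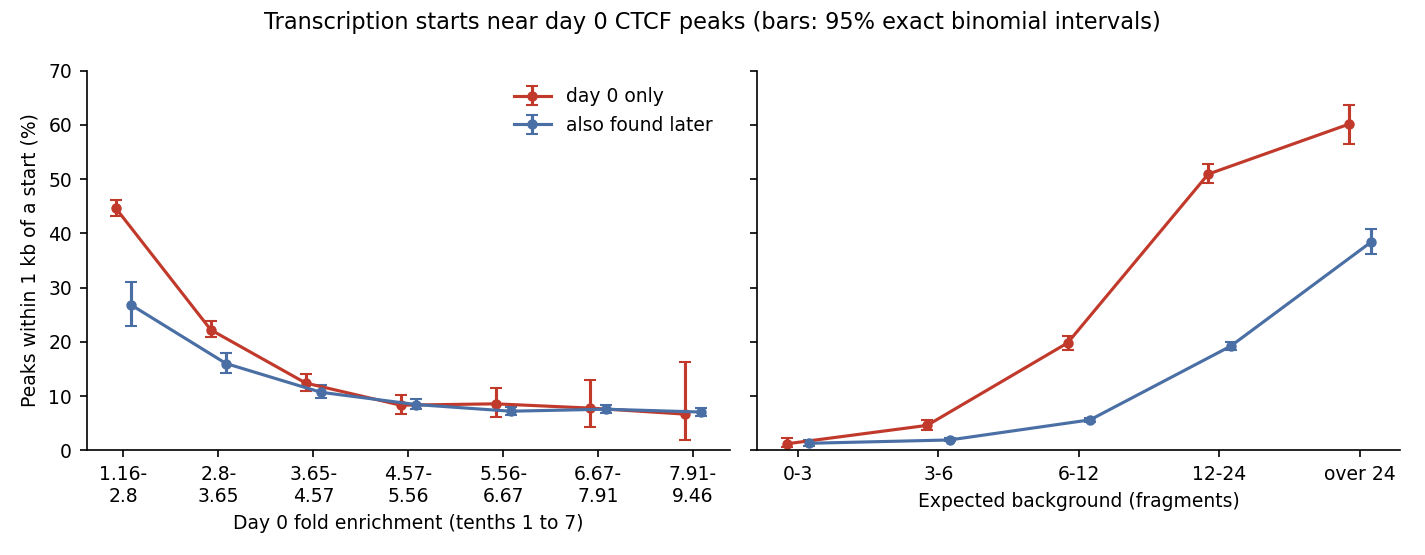
Percent of day 0 CTCF peaks whose summit lies within 1 kb of a transcription start, for day 0 only sites (red) and peaks also found later (blue), by day 0 fold (left, the 7 lowest of 10 equal groups) and by expected background (right), with 95% exact binomial intervals. The colours part at a fold under 3.65 and join above it, and both rise with background, to 60.1% and 38.4% above 24 fragments.

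Around starts, the summits of day 0 only sites lay mostly just downstream. The median position was 70 bp downstream of the start (quartiles −103 and 255.2 bp), and 38.8% (37.1 to 40.6) of the 2896 lay upstream. The 3369 other peaks near a start had a median 45 bp upstream, and 59.3% (57.6 to 61.0) of them lay upstream. The difference was −20.5 points (−22.9 to −18.0). At matched fold the differences were smaller, with intervals that included 0: 35.7% against 42.3% lay upstream at a fold of 2 to 3 (difference −6.53, −14.4 to 1.05), 43.3% against 42.7% at 3 to 4 and 52.1% against 53.2% at 4 to 6. Above a fold of 6 the shares upstream were 62.2% (44.8 to 77.5) of 37 day 0 only sites and 64.7% (62.7 to 66.7) of 2251 other peaks. In both classes the share upstream was thus higher at a fold of 4 or more than at 2 to 3. Starts on both strands within 1 kb were found at 15.8% of the day 0 only sites near a start and at 11.8% of the other peaks, a difference of 4.00 points (2.29 to 5.73).

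**Figure D4:**
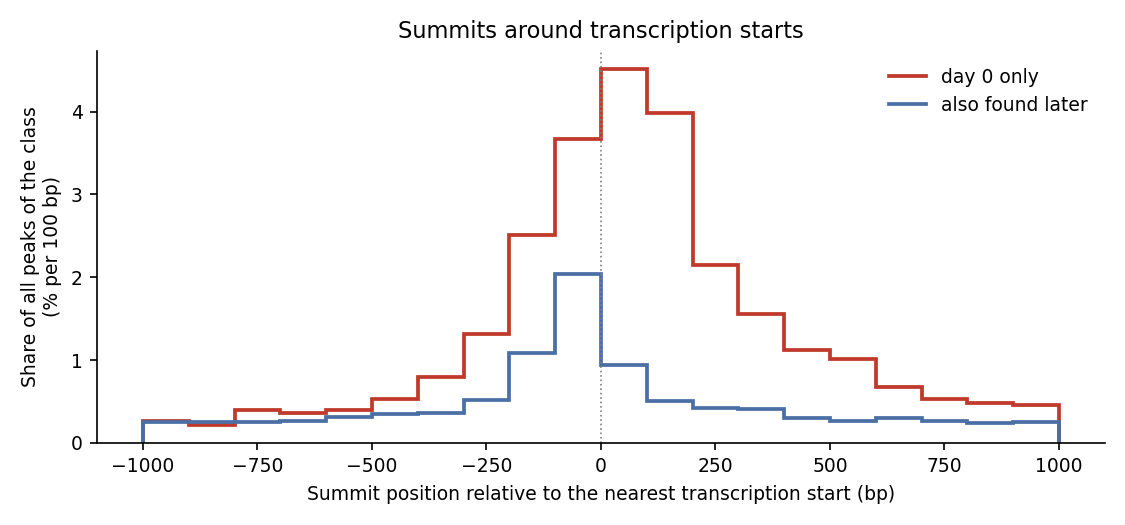
Positions of day 0 CTCF summits relative to the nearest transcription start, in 100 bp steps as a percent of all peaks of the class (negative values are upstream). Day 0 only sites (red) are most frequent 0 to 100 bp downstream, at 4.51%, and peaks also found later (blue) 0 to 100 bp upstream, at 2.04%.

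By gene, 3494 of 21887 protein-coding genes (16.0%, 15.5 to 16.5) had a day 0 only CTCF peak within 1 kb of an end, 4727 (21.6%) had a day 0 peak that was found later, and 703 had both. Counts for gene lists are read against that 16.0%. Of the genes of the pluripotent state, 5 of 22 naive and core factors (22.7%, 7.82 to 45.4) had a day 0 only peak. So did 5 of 12 formative and primed factors (41.7%, 15.2 to 72.3), while none of the 12 had a peak found later. Gbx2, a homeobox factor of naive cells, had 22 fragments against 8.70 expected, and Lef1, a factor that carries Wnt signals to DNA, had 32 against 10.0 at a summit 11 bp from its start. Among regulators of the germ layers the counts were 6 of 16 for neuroectoderm (37.5%, 15.2 to 64.6) and 4 of 19 for mesoderm and endoderm (21.1%, 6.05 to 45.6). The intervals of these pluripotency and germ layer lists all hold the 16.0%. Sox1, an early neural transcription factor, had 37 fragments against 14.8, Kdr, the receptor gene of blood vessel precursors, 51 against 14.9, and Nodal, the ligand that induces mesoderm and endoderm, 46 against 21.0.

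In signalling lists, 8 of 24 Wnt pathway genes, 8 of 25 BMP and TGF-beta pathway genes and 7 of 25 FGF and MAP kinase genes had a day 0 only peak. The intervals, 15.6 to 55.3%, 14.9 to 53.5% and 12.1 to 49.4% in that order, all hold the share of all coding genes. At the receptor gene Bmpr2 it had 89 fragments against 17.0 expected, at the activin receptor gene Acvr2a 36 against 7.85 and at Smad1, which carries BMP signals to the nucleus, 56 against 19.2. The Wnt receptor gene Fzd2 had 55 against 15.7. Genes of chromatin regulators included 6 of 15 NuRD subunits, with 3 that had a peak found later. Beside Gatad2a these were led by the histone-binding subunit gene Rbbp4 (57 fragments against 21.5), and Mta1, a scaffold subunit gene, had 45 against 23.7. Of 12 genes of DNA methylation and demethylation 5 had a day 0 only peak, among them the glycosylase gene Tdg (41 against 15.7) and the dioxygenase genes Tet1 (32 against 11) and Tet2 (41 against 16.6). Polycomb and trithorax genes had 6 of 24, led by Wdr5 (56 against 14.5), a shared subunit of histone H3 methyltransferases. The intervals of this list (9.77 to 46.7%) and of the DNA methylation list (15.2 to 72.3%) hold the share of all coding genes.

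Among housekeeping lists, only that of translation factors had an interval apart from the share of all coding genes. Translation factors had 15 of 40, with 56 fragments against 7.41 at Eif2b4 and 80 against 31.0 at Eif1, and mitochondrial ribosomal protein genes had 16 of 78. Mediator and general transcription genes had 10 of 59, DNA replication 7 of 42, cell cycle 7 of 40, proteasome subunits 5 of 33, complex I subunits 5 of 49, splicing factors 4 of 41 and glycolysis 1 of 18, the kinase gene Pgk1. Ribosomal protein genes had 12 of 101, while 43 of the 101 had a peak found later. In the list of CTCF and cohesin genes the count was 1 of 15, at the cohesin subunit gene Smc3 (54 fragments against 20.1), and 6 had a peak found later. Larger families had 58 of 400 zinc finger genes named Zfp, 64 of 389 solute carriers and 16 of 68 histone genes, and in the last of these 34 had a peak found later. Of 39 Hox genes 8 had a day 0 only peak, such as Hoxd9, whose summit lay 7 bp from the start with 43 fragments against 10.0. Clustered protocadherin genes had 6 of 57 (10.5%, 3.96 to 21.5), beside 49 with a peak found later, and imprinted genes had 3 of 26 (11.5%, 2.45 to 30.2), namely Kcnq1, Grb10 and Inpp5f, beside 10, so both intervals hold the share of all coding genes. Keratin genes, with 8 of 112 (7.14%, 3.13 to 13.6), and olfactory receptor genes, with 5 of 1110 (0.450%, 0.146 to 1.05), lay below it. Histone, olfactory receptor and protocadherin genes have close copies, and neighbours such as H2ac6 and H2bc4 share a single peak, so these counts are uncertain.

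MBD3 peaks, which the choice of sites did not use, were rare at day 0 only sites. On day 0 an MBD3 peak overlapped 546 of them (4.93%, 4.53 to 5.35), against 23.9% (23.5 to 24.3) of the other day 0 CTCF peaks, and on days 2, 4 and 6 one overlapped 47 (0.424%), 300 (2.71%) and 53 (0.479%), against 2.53%, 20.8% and 27.2%. An expected CTCF background over 10 times the genome-wide level was found at 3.53% of all day 0 only sites. It was found at 16.1% of those with MBD3 on day 0, and at 55.3%, 20.0% and 45.3% of those with MBD3 on days 2, 4 and 6. The day 0 share moved with the choice of peaks. It was 0.411% with a −log10 q of 10 or more in every list, the MBD3 lists included, and 6.23% with that limit on the day 0 CTCF list alone. With equal numbers of CTCF peaks per day it was 9.32%. The shares of the other day 0 peaks under these settings are not given here. On day 0 the gap between day 0 only sites and other day 0 peaks went with CTCF fold. Averaged within groups of equal CTCF fold, the day 0 difference was 0.708 points (−0.252 to 1.67), with an interval that includes 0, although at a fold of 2.80 to 3.65 and of 3.65 to 4.57 day 0 only sites had MBD3 more often, by 1.98 (0.958 to 2.92) and 1.48 points (0.511 to 2.53). On days 2, 4 and 6 it was −1.86 (−2.61 to −1.11), −2.84 (−3.89 to −1.79) and −3.85 points (−4.67 to −3.02). At equal fold, then, day 0 only sites had MBD3 less often than other sites on the days when they had no CTCF peak, and on average not detectably less often on day 0.

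The same was seen on days 4 and 6 when MBD3 peaks of day 0 were followed, while day 2 depended on MBD3 fold. Of the 546 day 0 only sites with an MBD3 peak on day 0, 36 (6.59%, 4.66 to 9.01) had one on day 2, 136 (24.9%, 21.3 to 28.8) on day 4 and 41 (7.51%, 5.44 to 10.0) on day 6. Of the 8684 other CTCF peaks with MBD3 on day 0, 9.04% had it on day 2, 53.0% on day 4 and 61.9% on day 6. The differences were −2.45 points (−4.34 to 0.0237), −28.1 (−31.7 to −24.2) and −54.4 (−56.6 to −51.7). In all 5 ranges of day 0 MBD3 fold the share was lower at day 0 only sites on day 4 and on day 6. In the range of 3 to 4, for example, 6 of 195 (3.08%) against 56.1% had MBD3 on day 6, a difference of −53.0 points (−55.5 to −49.1). On day 2 the direction varied with MBD3 fold. In every range below 6 the day 0 only share was the higher, though below 4 the intervals of the difference included 0. At 3 to 4 it was 4.1% against 2.82% (difference 1.29, −0.84 to 5.11), and at 4 to 6 it was 10.5% against 4.26% (6.22, 1.63 to 13.6). Above 6 it was 0 of 13 against 36.7%. Without peaks of high background (over 10 times the genome-wide level) the day 2 shares were 2.84% and 7.83% (difference −4.99, −6.31 to −2.95) and the day 6 shares 4.15% and 60.2%. With equal numbers of CTCF peaks per day they were 2.67% and 9.03% on day 2 (difference −6.35, −8.00 to −2.87) and 2.14% (4 of 187) and 63.2% on day 6. Whether carry-over of signal between the CTCF and MBD3 libraries of a day, or the depth of those libraries, takes part in this was not tested.

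**Figure D5:**
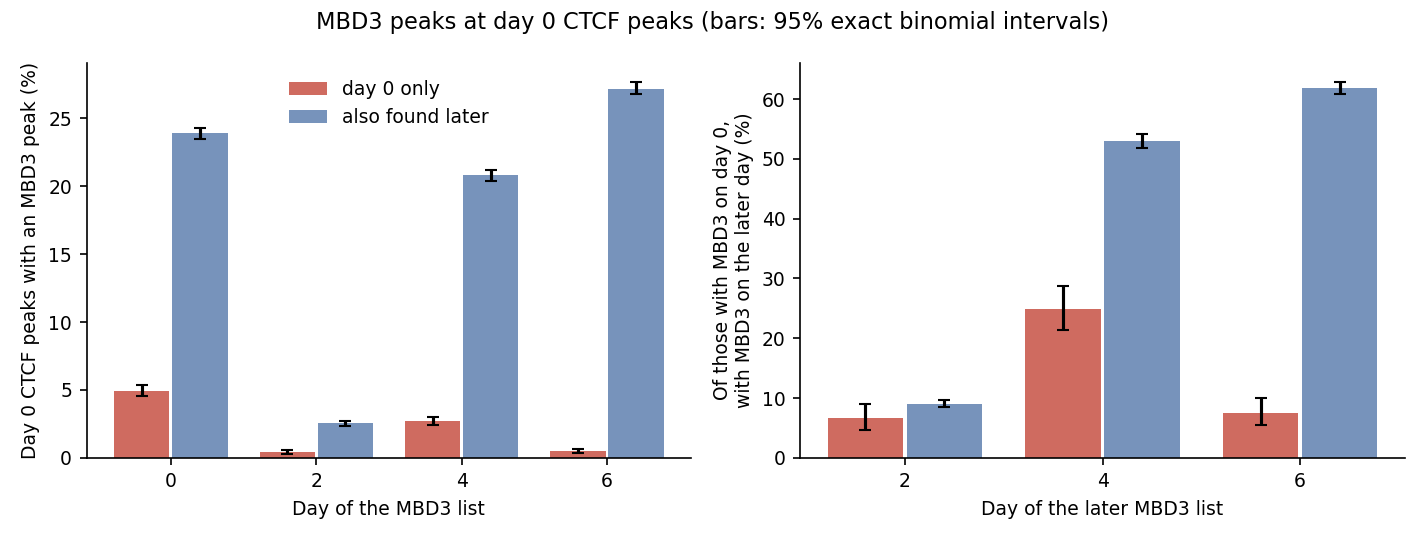
Left, percent of day 0 CTCF peaks that overlap an MBD3 peak of each day, for day 0 only sites (red) and peaks also found later (blue). Right, of those with an MBD3 peak on day 0, the percent with an MBD3 peak on each later day; error bars are 95% exact binomial intervals, and on day 6 the bars stand at 7.51% and 61.9%.

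Where MBD3 was present, its day pattern differed among the sites. MBD3 was found on day 0 alone at 389 sites, on day 4 alone at 155, on days 0 and 4 at 98 and on day 6 alone at 7, and 10352 sites had none on any day. The 155 sites with MBD3 on day 4 alone lay near starts most often among the larger of these sets, with 85 of 149 (57.0%) within 1 kb, against 121 of 379 (31.9%) with MBD3 on day 0 alone, 20 of 97 (20.6%) with days 0 and 4, and 26.3% without MBD3. Sites at the ends of Sox1, Tet2 and Kcnq1 were among them. The site near Tbca had the highest MBD3 fold on day 0, 8.49, against a median of 3.13 at the 546 sites and 4.25 at the other CTCF peaks with MBD3. It was followed by a site at Chmp4c, which encodes a subunit of the membrane scission complex ESCRT-III, with a fold of 7.03 on day 0 and 3.6 on day 4, and a site inside Atp6v0a2, which encodes a proton pump subunit, with 6.81 on day 0 and 2.95 on day 6.

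Only 16 day 0 only sites had an MBD3 peak on all 4 days, and 13 of these had an expected CTCF background over 10 times the genome-wide level, against 3.53% of all day 0 only sites. Of the 16, 10 lay inside a protein-coding gene, and at 5 of the 16 (Eef1a1, Rpl8, Mdk, Tra2b and, outside coding genes, the pseudogene Ubb-ps) the MBD3 fold was higher on each later day than on day 0. At Eef1a1, which encodes a translation elongation factor, the MBD3 fold was 2.29 on day 0 and 12.5, 12.3 and 13.2 on the later days in order, over a CTCF peak of fold 1.30 with 198 fragments against 151.5 expected. At the ribosomal protein gene Rpl8 it was 2.70, 9.43, 8.53 and 15.0, and at Ubb-ps, a ubiquitin pseudogene on chromosome 14 it was 2.78, 12.4, 15.2 and 11.8. At Agps, an enzyme gene of ether lipid synthesis, they were 4.89, 6.53, 2.93 and 3.82, and at Hnrnpa0, which encodes an RNA-binding protein, 4.58, 10.4, 5.76 and 3.52. Folds of different days come from lists with different backgrounds and were not tested against each other.

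By chromosome, the share of day 0 only sites among day 0 peaks differed little outside Y. It was 21.6% to 26.1% on each of chromosomes 1 to 19 and X, and on Y it was 15 of 37 (40.5%, 24.8 to 57.9). Beside the 23.4% of all day 0 peaks, the interval lay above on chromosomes 8 (24.4 to 27.8), 12 (24.2 to 27.9), 17 (23.8 to 27.6) and Y. It lay below on chromosome 9 (20.0 to 23.2). The nearest CTCF peak of all 4 days was a median of 17762 bp from day 0 only sites, against 18342 bp for peaks found on 1 or 2 later days, and 35.3% and 34.1% had one within 10 kb. Of the 100 kb windows with any day 0 only site, 4890 held 1, 1604 held 2 and 2 windows held the highest number, 8. One lay on chromosome 17 from 25800001 to 25900000, with 13 day 0 peaks and 11 coding genes including Stub1, Rhot2 and Fbxl16, and the other on chromosome 8 from 83900001 to 84000000, with 12 day 0 peaks at Adgrl1, Asf1b, Prkaca and Samd1. A window on chromosome 10 from 81100001 to 81200000, with Map2k2, Eef2 and Zbtb7a, held 7 among 12 day 0 peaks. Within genes, Gse1 on chromosome 8 held 9 among 31 day 0 peaks and Macf1, the gene of a large protein that links actin and microtubules, on chromosome 4 held 7 among 19. Annotated genes that span the protocadherin clusters, such as Gm37013, held 13 among 81.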

How the data were processed

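ChIP-seq of CTCF, MBD3 and input covered 36 samples in 12 groups of 3, grouped by title. The submitters' processing notes name MACS2 2.1.2, Bowtie2 2.3.4, SAMtools 1.9, bedtools 2.25.0 and FastQC 0.11.7, and the build mm10. The authors deposited 8 peak lists, whose names show that the 3 replicates were pooled before calling. Each peak has the authors' fold enrichment (a ratio, taken at its summit), −log10 p and −log10 q, whose lowest value was 1.30 to 1.31.

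Rows with the same interval were counted as 1 peak, on chromosomes 1 to 19, X and Y. Because MACS2 derives fold and p from the fragments at the summit and the expected background by fixed formulas, both were recovered by matching the −log10 p within 0.1%, which succeeded for 100.0% of the day 0 only sites. No other measure of depth was used, and PCR duplicates without molecular identifiers are not independent molecules. Genes and promoters came from RefSeq tables of GRCm38.p6, without exons, so exons and introns were not told apart. Starts and promoter windows on chromosome 18, and sequence outside promoter windows, were not used here.

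The sites, lists and comparisons were chosen with earlier results of these data known. Shares have exact (Clopper-Pearson) and differences Newcombe 95% intervals, for counting error only, and no p-value was computed since each group is 1 pooled list. Differences at equal fold were averaged over groups with at least 20 peaks of each class, weighted by the number of day 0 only sites, with a normal interval. Genes were named by rule: the 12 sites of highest fold, the 8 of highest −log10 q near a gene end, up to 4 genes for each of 29 lists, the 3 of highest MBD3 fold per day, up to 8 with MBD3 on all 4 days, and the 5 genes and 3 windows with most sites; not all are printed. Nipsnap2, Vps36, Mdk, Tra2b and the background, strand and summit position measures were added after the data were seen. Alternatives changed the overlap rule, the −log10 q, the list lengths, the lists used and the windows. The overlap code, recovery of fragments and intervals were tested on simulated data. Python 3.11.15, numpy 2.4.6, pandas 2.3.3 and scipy 1.17.1 were used.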

Additional observations from a re-analysis of the deposited data

How the results depend on the processing

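No paired analysis was possible because each peak list pools the 3 replicates of an antibody and day, so neither a replicate block nor leaving out a replicate could be run. Of 104 values of 8 results under other settings, 56 stayed within the 95% interval of the main value (counts, within 1.5 times) and 48 moved. The share near a protein-coding gene end was higher at day 0 only sites than at other day 0 peaks in every setting, by 9.35 to 17.1 points, with a main difference of 16.9 (28.4% against 11.5%).

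With a −log10 q of 10 or more in every list, 5113 sites were left (14.4% of day 0 peaks), with a median fold of 4.92, 1282 genes, 21.3% near gene ends, and MBD3 at 0.411% on day 0 and 0.0782% on day 6. With that limit on the day 0 CTCF list alone these were 2743 sites, 7.72%, 4.54, 817 genes, 24.9% (other peaks 11.9%), 6.23% and 0.292%. With equal numbers of CTCF peaks per day they were 2006 sites, 7.13%, 5.93, 615 genes, 25.6% (other peaks 12.3%) and 9.32% on day 0. So the number of sites fell by more than 1.5 times under each limit on peak strength.

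Without the day 2, day 4 or day 6 list the median fold was 3.14, 3.24 and 3.32 and the share of day 0 peaks 24%, 26.5% and 27.9%, and without days 4 and 6 the share near gene ends was 26.6% and 25.8%. With no later peak within 1 kb the share of day 0 peaks was 21.2%, the median fold 3.14 and the other peaks' share near gene ends 12.1%. With summits within 100 bp as the rule, the share of day 0 peaks was 23.8% and MBD3 on day 6 was 0.629%. With MBD3 summits within 100 bp of the CTCF summit, MBD3 was at 3.28% on day 0 and 0.253% on day 6. Windows of 250 bp gave 2308 genes, 14.6% and 5.29% (other peaks), and windows of 5 kb gave 5571, 46.7% and 29.8%. Leaving out peaks with an expected background over 10 times the genome-wide level, chosen after seeing the data, gave a median fold of 3.15, 27.2% and 10.6% near gene ends, and MBD3 at 4.29% on day 0 and 0.271% on day 6. The cause of these moves was not tested beyond what each setting removes by its construction. The pooled lists limit every value here, since variation between replicates, cultures or libraries cannot be seen.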
